A study of Mus musculus with 10 samples.

Results

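The genes described here encode guidance cues and their receptors. They comprise the semaphorins, plexins, neuropilins, Slits, Robos, netrins, Unc5 receptors, ephrins, Eph receptors and Nogo receptors. They were taken by gene symbol alone, and 70 of the 18407 genes in the counts table matched. Messenger RNA was sequenced from the NMC line, an established line of normal mouse cholangiocytes, the epithelial cells of the bile duct. All cells were grown as 3D double spheroids for 6 days, in collagen I at 1 mg/mL (5 libraries, called collagen) or in a mix of 3 parts laminin to 1 part collagen I by volume (5 libraries, called laminin). Collagen I was thus present in both groups, no other treatment was given, and every library came from this 1 line. The comparison asks how the matrix protein around the cells bears on their expression.

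Guidance cues were first described as signals that steer growing axons, and epithelia use the same families to control adhesion, cell spacing and tube formation. Semaphorins bind plexins, and the secreted class 3 semaphorins mostly need a neuropilin as co-receptor. Plexins act on small GTPases and thereby on integrin adhesion and the actin skeleton. Ephrins are anchored to the membrane and bind Eph receptor tyrosine kinases on the neighbouring cell, so that contact signals into both cells. Slits bind Robo receptors, netrins bind Dcc, neogenin and Unc5 receptors, and the Nogo receptors are lipid-anchored proteins with leucine-rich repeats.

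Library totals ran from 4424725 to 8129979 counts. Levels are given as CPM, the count per library scaled to a common size, on TMM-scaled library sizes, and differences as laminin minus collagen on the log2 scale with the standard error (SE). After a filter on low counts 10789 genes were tested, among them 48 of the 70 guidance genes. The other 22 guidance genes reached at most 16 counts in any library and were not tested. Libraries differed in how expression followed transcript length. The slope of log2 CPM deviations per doubling of length was -0.058 ± 0.234 (SD, n = 5) in collagen and 0.058 ± 0.120 (SD, n = 5) in laminin. Deviations were taken from the mean of all libraries, so the group means mirror each other by construction. How the cultures behind the libraries were divided is not stated. The p-values therefore measure only how these libraries vary, which may be technical.

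In the laminin matrix 2 of the 48 tested guidance genes rose and 0 fell. The semaphorin Sema4g rose 2.20-fold and the Nogo receptor relative Rtn4rl1 rose 1.68-fold. Calls required an adjusted p below 0.05 (edgeR quasi-likelihood F test, Benjamini-Hochberg over all 10789 genes), a rule that called 0.139% of tested genes higher and 0.00927% lower. At an unadjusted p below 0.05 the count was 12 of 48 higher (25.0%) and 0 lower, against 6.70% of tested genes higher and 4.95% lower. The gene set was chosen with earlier results of these data known, so such shares only describe it. In 7 guidance genes every laminin library lay above every collagen library (14.6% of 48), and in 0 every laminin library lay below, against 1.94% and 1.30% of tested genes. DESeq2 called 7 of the 59 guidance genes to which it gave an adjusted p, all higher, against 1.29% of genes called higher. Those 7 were Sema4g, Rtn4rl1, Sema6a, Epha7, Sema5a, Ephb3 and Efnb1. Leaving out a single library changed the number of guidance genes that edgeR called. With collagen replicate 3 or 5, or laminin replicate 2, left out there were 0 calls, among guidance genes and among all tested genes alike. With collagen replicate 1 or 2, or laminin replicate 3 or 5, left out there was 1 call, of Sema4g each time. Those fits called 2 to 10 of all tested genes higher, against 15 in the main test. The count stayed at 2 with replicate 4 of either matrix left out and reached 3 when laminin replicate 1 was dropped. Of all tested genes, 12 were called higher without collagen replicate 4, 26 without laminin replicate 4 and 54 without laminin replicate 1.

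**Figure D1:**
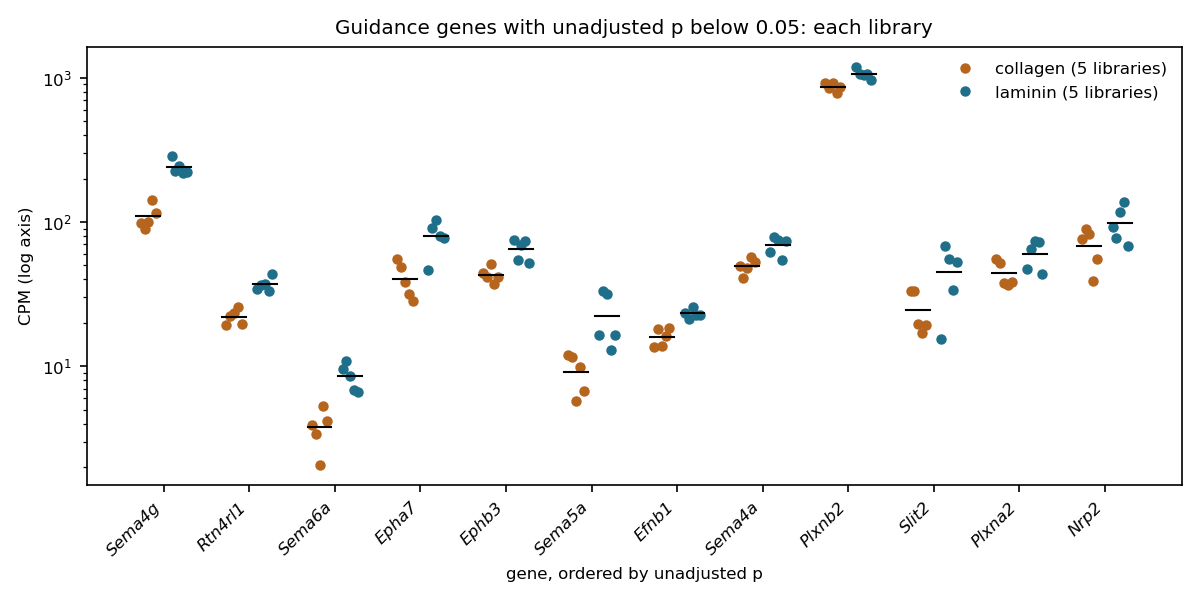
CPM (log axis) of the 12 guidance genes with an unadjusted p below 0.05, with 1 point per library, 5 in collagen and 5 in laminin, and a line at each group mean. The groups do not overlap for Sema4g, Rtn4rl1, Sema6a, Ephb3, Sema5a, Efnb1 and Plxnb2, and they overlap for the other 5.

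Class 4 semaphorins are membrane-bound ligands that signal mainly through B-type plexins. Sema4g stood at 98.7, 88.9, 99.7, 143 and 116 CPM in collagen replicates 1 to 5 and at 286, 226, 246, 219 and 223 CPM in laminin replicates 1 to 5. The lowest laminin library lay well above the highest collagen library. The log2 difference was 1.14 (SE 0.14, adjusted p = 0.0165 in edgeR, higher in 5 of 5 laminin libraries than in any collagen library). Per length, Sema4g was the most abundant class 4 gene, at 24.0 ± 4.66 CPM per kb of transcript in collagen and 52.7 ± 6.07 in laminin (SD, n = 5 each). Its share of the summed CPM per kb of the class went from 33.9% ± 4.69 in collagen to 48.7% ± 2.99 in laminin. Sema4g lies on chromosome 19 from 44989101 to 45003397 (GRCm38). With collagen replicate 3 left out Sema4g no longer passed in edgeR (adjusted p = 0.0597), nor with collagen replicate 5 (0.0728) or laminin replicate 2 (0.0857) left out. Over all the settings tried its adjusted p ran from 6.1e-11 to 0.248.

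The other class 4 genes differed less. Sema4a, known as a ligand on immune and epithelial cells, was at 49.7, 41.1, 47.9, 57.4 and 53.1 CPM in collagen and at 62.0, 79.2, 74.5, 54.2 and 74.0 CPM in laminin. Laminin replicate 4 fell within the collagen range, and the log2 difference of 0.46 (SE 0.13) did not pass (adjusted p = 0.203 in edgeR). Sema4b, Sema4c and Sema4d gave log2 differences of 0.17, 0.27 and -0.04 at levels from 27.2 to 62.8 CPM, with adjusted p in edgeR from 0.543 to 0.958. Sema4f was too low to test.

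A pair of transmembrane semaphorins at low level had group ranges that did not overlap. Sema6a, a ligand and receptor for A-type plexins, was at 3.95, 3.39, 2.07, 5.29 and 4.17 CPM in collagen and at 9.52, 10.9, 8.63, 6.89 and 6.68 CPM in laminin. Every laminin library was higher, with a log2 difference of 1.20 (SE 0.25, adjusted p = 0.0807 in edgeR). Sema5a, which carries thrombospondin repeats, was at 12, 11.6, 5.71, 9.97 and 6.74 CPM in collagen and at 16.5, 33.2, 31.8, 13.04 and 16.6 CPM in laminin. The groups again did not overlap, but laminin replicates 2 and 3 stood well above the other laminin libraries, and the log2 difference of 1.28 (SE 0.30) did not pass (adjusted p = 0.119 in edgeR). The rest of class 6 gave log2 differences from -0.09 for Sema6b, the most abundant of its class per length at 2.98 ± 0.819 and 2.82 ± 0.829 CPM per kb, to 0.20 for Sema6d. Sema6b stood at 9.04, 8.75, 11.7, 9.97 and 16.2 CPM in collagen and at 12.9, 12.5, 9.43, 5.54 and 12.2 CPM in laminin, in overlapping ranges (adjusted p = 0.917 in edgeR).

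Class 3 semaphorins are secreted and diffuse from the cell. They held the most abundant semaphorin per length, Sema3c, at 89.0 ± 25.0 CPM per kb in collagen and 91.8 ± 7.71 in laminin (SD, n = 5 each). Its libraries read 621, 596, 539, 315 and 372 CPM in collagen and 495, 479, 508, 574 and 464 CPM in laminin. Collagen replicates 4 and 5 were low, the other 3 collagen libraries were mostly above laminin, and the log2 difference was 0.04 (SE 0.17, adjusted p = 0.945 in edgeR). Sema3f was at 36.3 ± 6.23 and 37.1 ± 2.86 CPM per kb, and Sema3e at 16.0 ± 5.72 and 17.0 ± 1.70. None of the 5 tested class 3 genes had an unadjusted p below 0.05 in edgeR, and their log2 differences ran from 0.03 to 0.35.

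**Figure D2:**
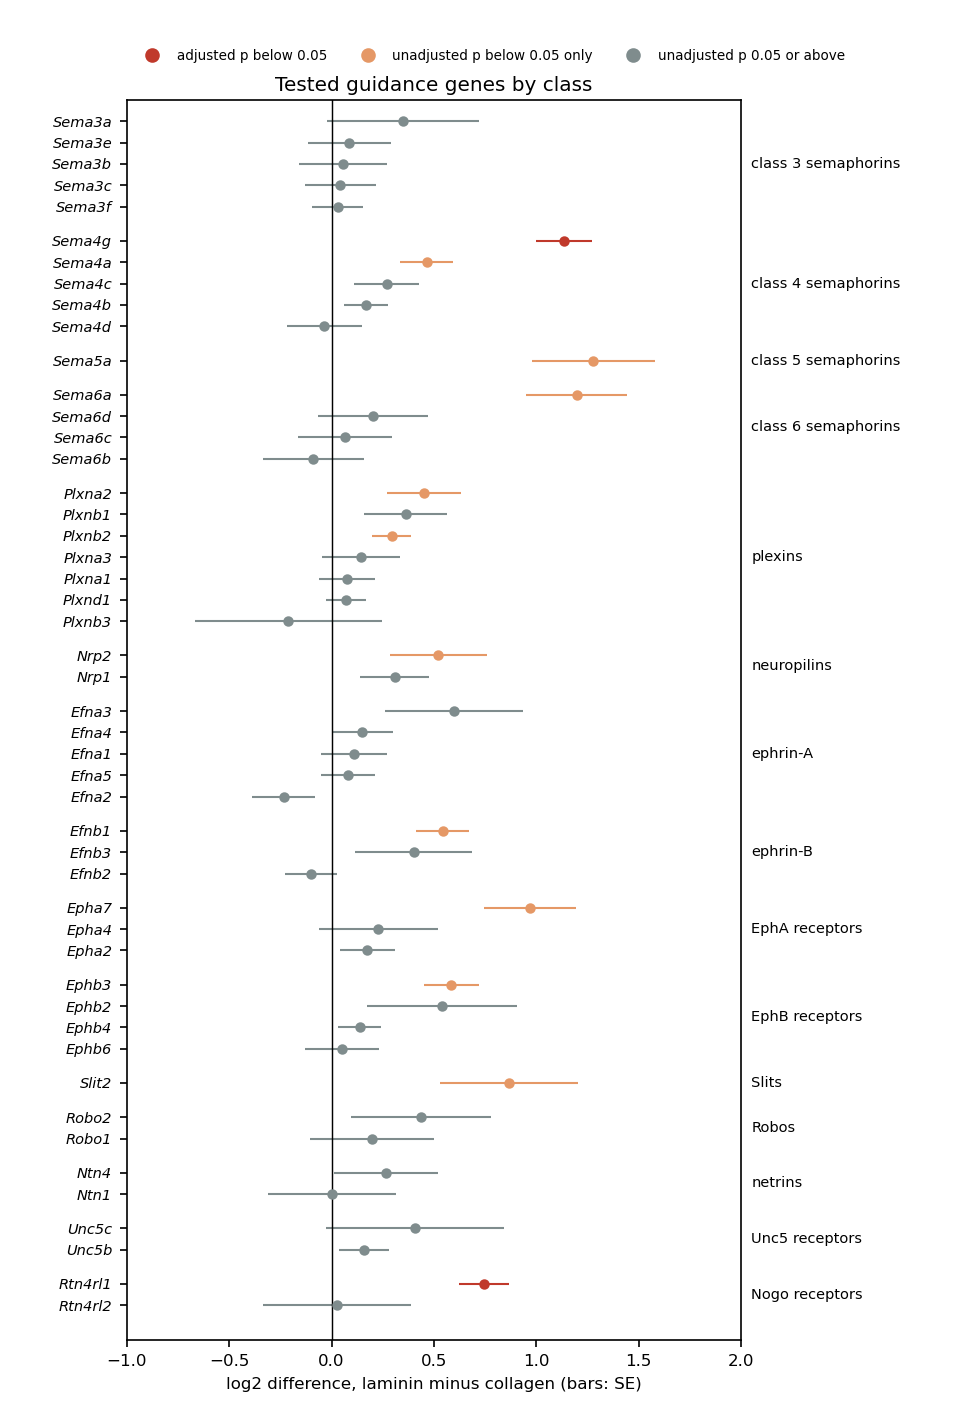
Log2 difference (laminin minus collagen) of each of the 48 tested guidance genes, grouped by class, with bars of 1 SE. Red marks an adjusted p below 0.05, orange an unadjusted p below 0.05 only. Values run from -0.23 for Efna2 to 1.28 for Sema5a, and 43 of the 48 lie above 0.

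Among the receptors for semaphorins, Plxnb2 was the most abundant guidance gene per length, at 133 ± 8.94 CPM per kb in collagen and 163 ± 12.7 in laminin (SD, n = 5 each). Plxnb2 encodes a plexin for class 4 semaphorins. Its libraries read 918, 853, 920, 779 and 855 CPM in collagen and 1187, 1058, 1037, 1060 and 957 CPM in laminin. The groups did not overlap, but the log2 difference of 0.29 (SE 0.09) did not pass (adjusted p = 0.254 in edgeR). Plxna2 was at 55.5, 51.8, 38.1, 36.4 and 38.3 CPM in collagen and at 47.0, 64.7, 73.9, 72.2 and 43.3 CPM in laminin. Its ranges overlapped, with a log2 difference of 0.45 (SE 0.18, adjusted p = 0.348 in edgeR). Corrected for transcript length and GC content, Plxnb2 gave 0.06 and Plxna2 0.17. The other 5 tested plexins, Plxna1, Plxna3, Plxnb1, Plxnb3 and Plxnd1, gave log2 differences from -0.21 to 0.36. Plxnb3 varied most from library to library, between 9.18 and 40.7 CPM in collagen and between 9.89 and 53.3 CPM in laminin.

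The neuropilins are co-receptors for class 3 semaphorins and for vascular endothelial growth factors. Nrp2 was at 76.3, 89.6, 82.5, 38.9 and 55.7 CPM in collagen and at 92.8, 77.2, 117, 138 and 68.0 CPM in laminin. Collagen replicates 4 and 5 were the lowest of the 10, and the log2 difference of 0.52 (SE 0.24) did not pass (adjusted p = 0.424 in edgeR). Nrp1, the more abundant of the pair per length, was at 255, 197, 196, 141 and 143 CPM in collagen and at 214, 240, 214, 290 and 195 CPM in laminin (log2 difference 0.31, SE 0.17, adjusted p = 0.504 in edgeR). The same collagen libraries, replicates 4 and 5, were thus low for Sema3c, Nrp1 and Nrp2. They carry a library code letter, D, whose meaning is not stated, and had length slopes of -0.371 and -0.190, the lowest of the 10. Without them the log2 difference was 0.10 for Nrp1, 0.25 for Nrp2 and -0.22 for Sema3c, and none passed in edgeR. With them as the only collagen libraries (code letter B left out) all 3 genes were called higher in edgeR. Nrp1 gave 0.67 (adjusted p = 0.0232 in edgeR), Nrp2 1.03 (adjusted p = 0.0297) and Sema3c 0.52 (adjusted p = 0.0257). That fit called 1206 of 11018 genes higher and 877 lower, and 9 guidance genes higher. Sema3e was among those 9 and also had its lowest values in collagen replicates 4 and 5, at 68.0 and 87.0 CPM. Corrected for transcript length and GC content, with all 10 libraries, Nrp1 gave 0.35, Nrp2 0.36 and Sema3c -5.2e-05, and none passed in edgeR. Each code letter occurs in 1 matrix only, so letter and matrix cannot be told apart.

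**Figure D3:**
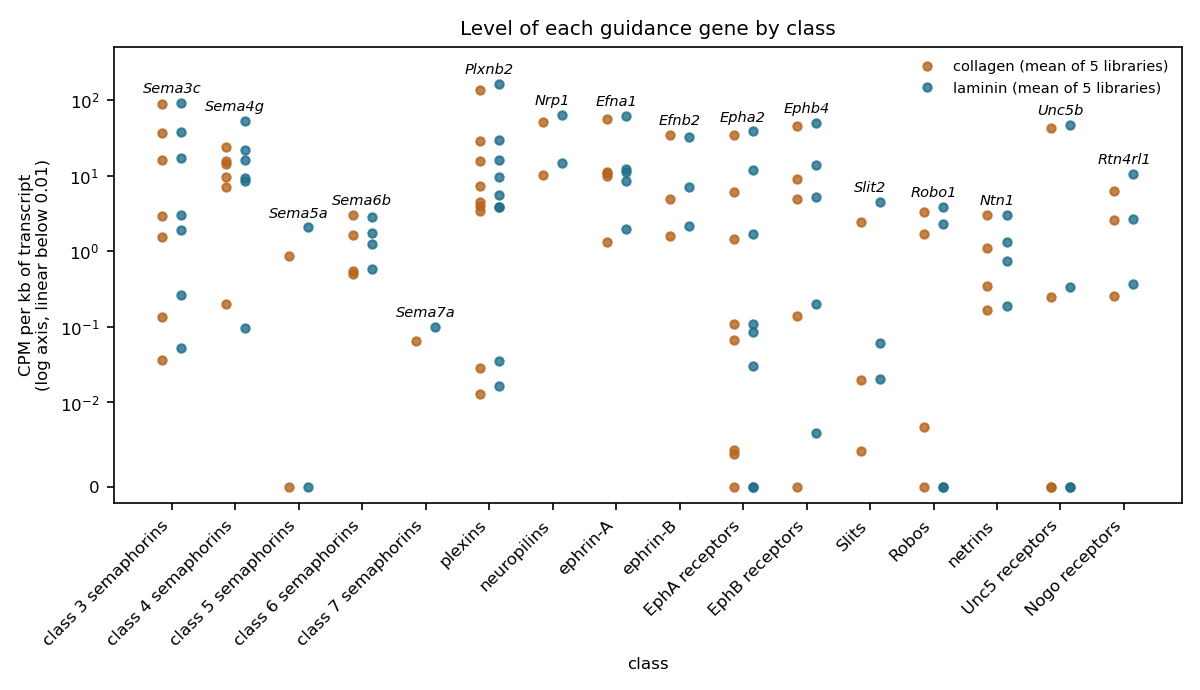
Mean CPM per kb of transcript (log axis, linear below 0.01) of all 70 guidance genes by class, with 1 point per gene for collagen and 1 for laminin. The highest gene of each class is named. Plxnb2 at 133 and 163 and Sema3c at 89.0 and 91.8 lie at the top.

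Of the Eph receptors, Epha7 and Ephb3 differed most. Epha7 was at 55.2, 48.9, 38.4, 31.7 and 28.4 CPM in collagen and at 46.2, 91.2, 103, 80.0 and 77.6 CPM in laminin. Laminin replicate 1 fell within the collagen range, and the other 4 laminin libraries lay above it. The log2 difference was 0.97 (SE 0.22, adjusted p = 0.109 in edgeR). Epha7 passed in edgeR once laminin replicate 1 was left out, at 1.12 (adjusted p = 0.0308), and after correction for transcript length and GC content, at 0.86 (adjusted p = 0.0181, kept in 4 of 10 corrected fits that each lacked a library). Over the settings tried without leaving a library out of the corrected fit, its adjusted p ran from 0.0071 to 0.477. Ephb3, a receptor for B-type ephrins known from sorting of intestinal epithelial cells, was at 44.6, 41.6, 50.9, 37.2 and 41.9 CPM in collagen. In laminin it was at 75.0, 54.3, 69.7, 73.9 and 51.6 CPM, above every collagen library (log2 difference 0.59, SE 0.14, adjusted p = 0.109 in edgeR).

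The most abundant Eph receptors per length showed smaller differences. Ephb4 was at 184, 160, 226, 203 and 214 CPM in collagen and at 209, 217, 210, 220 and 229 CPM in laminin (log2 difference 0.14, SE 0.10, adjusted p = 0.647 in edgeR). Epha2, which is widely expressed in epithelia, was at 113, 140, 148, 107 and 153 CPM in collagen and at 184, 132, 132, 141 and 158 CPM in laminin (0.18, SE 0.13, adjusted p = 0.651). In both genes the ranges overlapped. Ephb2, Epha4 and Ephb6 gave log2 differences of 0.54, 0.23 and 0.05, with adjusted p in edgeR from 0.611 to 0.939. Ephb6 lacks kinase activity.

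Among the ephrins, Efnb1 stood apart. Efnb1, a transmembrane ephrin, was at 13.6, 18.03, 13.7, 16.3 and 18.4 CPM in collagen and at 23.5, 21.4, 25.9, 22.8 and 22.6 CPM in laminin. No laminin library reached down to the collagen range, and the log2 difference was 0.54 (SE 0.13, adjusted p = 0.128 in edgeR). Efnb2, the most abundant B-type ephrin per length at 34.2 ± 6.25 and 31.9 ± 2.87 CPM per kb, read 188, 200, 154, 126 and 150 CPM in collagen and 149, 176, 151, 149 and 139 CPM in laminin (-0.10, SE 0.13, adjusted p = 0.814). Efna1, a lipid-anchored ligand of Epha2, was the most abundant ephrin per length at 56.2 ± 8.90 and 60.6 ± 13.5 CPM per kb. It read 81.1, 80.7, 83.6, 114 and 99.3 CPM in collagen and 125, 110, 80.1, 72.2 and 107 CPM in laminin (0.11, SE 0.16, adjusted p = 0.840). The other A-type ephrins gave log2 differences from -0.23 for Efna2 to 0.60 for Efna3, and none had an unadjusted p below 0.05 in edgeR.

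Slit2 was the only Slit with enough counts to test. This secreted ligand of Robo receptors was at 33.3, 33.0, 19.7, 16.9 and 19.3 CPM in collagen and at 15.4, 67.7, 55.0, 33.6 and 52.5 CPM in laminin. Laminin replicate 1 held the lowest value of all 10 libraries, and the other 4 laminin libraries were above collagen. The log2 difference of 0.87 (SE 0.34) did not pass (adjusted p = 0.340 in edgeR), nor did the 1.09 obtained without laminin replicate 1 (adjusted p = 0.0909). Laminin replicate 1 was also the lowest laminin library for Epha7. Robo1 was at 34.7, 33.0, 24.2, 16.3 and 17.97 CPM in collagen and at 19.5, 25.1, 28.3, 53.5 and 18.2 CPM in laminin. Its log2 difference of 0.20 (SE 0.30, adjusted p = 0.850 in edgeR) rested on laminin replicate 4 and was -0.17 without it. Robo2 gave 0.44 (SE 0.34) and was also highest in laminin replicate 4, at 42.7 CPM, while the remaining laminin libraries held 12.2 to 16.6 CPM.

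Netrins and their Unc5 receptors showed no call. Ntn1 was at 20.2, 15.7, 21.8, 12.4 and 18.9 CPM in collagen and at 10.9, 9.44, 14.9, 34.5 and 19.8 CPM in laminin. Laminin replicate 4 was the highest of the 10 and laminin replicates 1 and 2 the lowest, with a log2 difference of 0.00 (SE 0.31, adjusted p = 0.998 in edgeR) that was -0.41 without replicate 4. Unc5b, which can trigger cell death when no netrin is bound, was the most abundant Unc5 receptor per length, at 41.9 ± 3.40 and 46.8 ± 8.22 CPM per kb. It read 222, 257, 269, 228 and 253 CPM in collagen and 353, 234, 282, 238 and 266 CPM in laminin (0.16, SE 0.12, adjusted p = 0.651).

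Rtn4rl1 encodes a relative of the Nogo receptor and binds chondroitin sulphate proteoglycans in the nervous system. It was at 19.2, 22.3, 23.5, 25.6 and 19.7 CPM in collagen and at 34.4, 36.7, 37.4, 33.3 and 43.3 CPM in laminin. All 5 laminin libraries lay above all 5 collagen libraries, and the spread within each group was small. The log2 difference was 0.75 (SE 0.12, adjusted p = 0.0386 in edgeR). The gene lies on chromosome 11 from 75193783 to 75267769 (GRCm38). Its relative Rtn4rl2 was at 3.35 ± 1.03 and 3.46 ± 1.73 CPM (0.03, SE 0.36), and Rtn4r itself had 39 counts over all 10 libraries and was not tested. Rtn4rl1 no longer passed in edgeR with collagen replicate 1 (adjusted p = 0.0751), 2 (0.0983), 3 (0.0824) or 5 (0.132) left out, nor with laminin replicate 2 (0.147), 3 (0.151) or 5 (0.0960) left out. Over all the settings tried its adjusted p ran from 2.0e-05 to 0.409.

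Promoter windows of 4 of the 12 genes with an unadjusted p below 0.05 are shown for their base composition. Neither called gene, Sema4g or Rtn4rl1, is among them. RefSeq windows (GRCm38.p6) were available for 60 of the 70 guidance genes, and the 250 bases before each annotated start were read. A window is printed where it overlapped no exon in GENCODE M21. They lie at chr4:28812881-28813130 (plus strand) for Epha7, chrX:99135811-99136060 (plus) for Efnb1, chr3:88461183-88461432 (minus) for Sema4a and chr15:89180789-89181038 (minus) for Plxnb2. Capitals mark each match to the GC box GGGCGG on either strand, and matches may share bases with each other.
Epha7: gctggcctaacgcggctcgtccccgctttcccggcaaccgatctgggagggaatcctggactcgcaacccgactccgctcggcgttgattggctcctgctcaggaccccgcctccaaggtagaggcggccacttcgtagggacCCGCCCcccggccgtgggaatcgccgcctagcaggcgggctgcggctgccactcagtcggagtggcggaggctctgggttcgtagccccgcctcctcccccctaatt
Efnb1: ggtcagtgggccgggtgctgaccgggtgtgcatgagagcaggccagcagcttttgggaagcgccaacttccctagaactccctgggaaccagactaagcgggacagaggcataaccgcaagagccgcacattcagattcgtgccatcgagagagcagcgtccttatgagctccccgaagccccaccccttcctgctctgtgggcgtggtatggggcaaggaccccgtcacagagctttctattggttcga
Sema4a: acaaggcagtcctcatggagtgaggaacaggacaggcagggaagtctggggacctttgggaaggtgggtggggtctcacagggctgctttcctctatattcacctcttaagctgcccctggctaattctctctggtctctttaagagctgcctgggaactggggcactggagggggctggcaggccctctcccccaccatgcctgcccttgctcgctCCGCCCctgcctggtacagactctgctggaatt
Plxnb2: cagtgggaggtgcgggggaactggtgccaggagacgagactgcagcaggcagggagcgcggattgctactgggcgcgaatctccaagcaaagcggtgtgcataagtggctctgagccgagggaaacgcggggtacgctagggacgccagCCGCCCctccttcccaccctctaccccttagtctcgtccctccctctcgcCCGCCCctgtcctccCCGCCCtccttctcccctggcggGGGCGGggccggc

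These windows held 25 CpG dinucleotides in Epha7, 13 in Efnb1, 2 in Sema4a and 20 in Plxnb2. The median was 15.5 over the 76 windows of guidance genes and 6 over all 32851 RefSeq windows of the same length. A GC box was found in 71.1% of the guidance gene windows and in 32.7% of all windows, with 4 matches in Plxnb2, 1 each in Epha7 and Sema4a, and 0 in Efnb1. The TATA box TATAAA was found in 2.63% of guidance gene windows and 12.4% of all windows. The AP-1 motif TGANTCA was found in 3.95% and 6.75%, and the TEAD motif GGAATG in 10.5% and 12.6%. Both strands were searched, and none of these 3 motifs was found in the 4 windows shown. Windows of 1 gene can overlap, and matches describe the letters only.

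Guidance genes as a group lay towards laminin, with 43 of 48 tested genes above 0 (89.6%) and a median log2 difference of 0.20, against 51.7% and 0.01 over all tested genes. Their transcripts were long and GC-rich. The median was 4944 nt and 56.3% GC, against 3487 nt and 49.7% over all tested genes. The Spearman correlation between the log2 difference and transcript length was 0.28 across the 48 genes and 0.39 across all tested genes, as a description over genes that share the same 10 libraries. When each library was corrected for its own trend on length and GC, 34 of 48 guidance genes lay above 0 and the median was 0.08. Over all tested genes in that fit, 48.8% lay above 0 and the median was -0.0045. With this correction 3 guidance genes were called higher, Sema4g at 1.00, Epha7 at 0.86 and Rtn4rl1 at 0.67, against 0.723% of tested genes. At an unadjusted p below 0.05 there were 11 higher (22.9%) and 2 lower, against 8.13% and 7.03% of tested genes. The 2 lower were Plxna1 at -0.24 and Plxnd1 at -0.21, named after their values were seen. The correction was fitted blind to the matrix and takes out real differences too where they follow length or GC. Without laminin replicate 4, and with no correction, 32 of 48 lay above 0, against 46.9% of all tested genes in that fit.

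**Figure D4:**
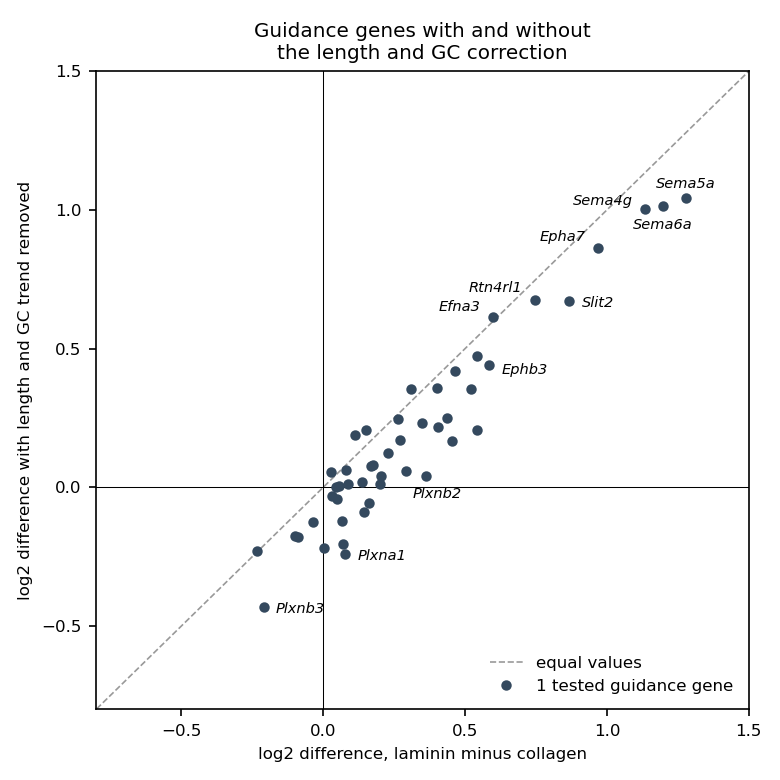
Log2 difference (laminin minus collagen) of the 48 tested guidance genes without (x axis) and with (y axis) removal of each library's trend on transcript length and GC content. The dashed line marks equal values. Sema4g moves from 1.14 to 1.00 and Plxnb2 from 0.29 to 0.06, and most points lie below the line.

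The 22 guidance genes that were not tested had group means of at most 1.32 CPM. No count in any library was found for Epha6, Robo4, Sema5b, Unc5a and Unc5d. In a single library a count of 0 allows up to 3 counts, or 0.365 to 0.691 CPM by library. Expression below that level could go undetected in a library, and over all 10 libraries together the limit is lower. Each of Epha5, Ephb1 and Robo3 had 1 count over all 10 libraries. Slit1 and Slit3, Plxnc1 and Plxna4, and Sema3d and Sema7a had 5 to 27 counts in total. Ntn5, with 0.603 ± 0.454 CPM in collagen and 1.32 ± 0.424 in laminin, was the highest of the untested genes in laminin. Exons of 14 guidance genes overlap those of a gene on the opposite strand. Of these Ephb4, Plxna1, Plxnb1, Sema4c, Unc5c, Efna3 and Efna4 were tested, and Ntn5, Ntn3, Plxna4, Epha1, Epha6, Ephb1 and Unc5a were not. How counting treated strand is not given, so reads of such pairs may not be told apart.

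Of 131 genes listed as co-receptors, adaptors and effectors of guidance signalling, 101 were tested. One of them, Sipa1l2, rose and 0 fell, and at an unadjusted p below 0.05 there were 10 higher (9.90%) and 6 lower (5.94%), close to the 6.70% and 4.95% of all tested genes. Sipa1l2 encodes a Rap GTPase-activating protein and went from 11.6 ± 3.30 CPM in collagen to 26.4 ± 4.88 CPM in laminin (log2 difference 1.18, SE 0.20, adjusted p = 0.0487 in edgeR). That call was lost with library size scaling (adjusted p = 0.0621), and it was kept in 2 of 10 fits without a single library, those without collagen replicate 1 or laminin replicate 1. Another 4 had an unadjusted p below 0.01. Furin, a protease that processes semaphorins, was at 146 ± 15.4 and 196 ± 16.7 CPM (0.42, SE 0.10). Mical1, a plexin-associated oxidoreductase that disassembles actin, was at 22.8 ± 2.44 and 31.6 ± 3.90 CPM (0.47, SE 0.12). Flrt1, a membrane protein with leucine-rich repeats whose family binds Unc5 receptors, was at 5.93 ± 2.34 and 10.2 ± 1.53 CPM (0.77, SE 0.25). Chn1, a Rac GTPase-activating protein that acts downstream of EphA receptors, was at 8.41 ± 2.49 and 3.91 ± 1.41 CPM (-1.07, SE 0.28). Their adjusted p in edgeR ran from 0.133 to 0.268.

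The libraries carried the cholangiocyte markers Krt19, at a mean of 1043 CPM, Krt8, Krt18, Epcam and Cdh1. Of 20 such markers 15 had a mean of at least 1 CPM, and their sum was 4514 to 6641 CPM in collagen and 4767 to 6348 CPM in laminin. Guidance genes are also typical of neurons and endothelium. Of 20 neuron and glia markers 4 reached 1 CPM, Ncam1, Mbp, Map2 and Tubb3, while Rbfox3, Snap25, Stmn2, Elavl4, Nefl, Gap43, Sox10 and Chga had no count. Their sum was 231 to 262 CPM in collagen and 234 to 305 CPM in laminin. Of 15 endothelial markers 5 reached 1 CPM, led by Flt1 at 531 CPM, and Cdh5, Kdr, Erg, Emcn and Cldn5 had no count. That sum was 347 to 677 CPM in collagen and 556 to 675 CPM in laminin. Fibroblast and stellate markers (6 of 16 at 1 CPM or more) summed to 26.6 to 34.4 and 24.7 to 57.8 CPM, with no count for Lrat, Rgs5, Thy1 and Tcf21, and leukocyte markers (2 of 15) to 51.7 to 90.0 and 52.9 to 93.7 CPM, with no count for Adgre1, Tyrobp and Ms4a1. Hepatocyte markers (5 of 14) summed to 90.2 to 139.6 CPM in collagen and 138.1 to 194 CPM in laminin, in ranges that just overlapped. Hnf4a and Alb made up most of the sum and had higher means in laminin, while Apoa1 had a mean of 2.31 CPM in collagen and 1.24 CPM in laminin. There was no count for Cyp2e1, Ass1, Cyp3a11 and Pck1. Their part in the differences of Sema4g and Rtn4rl1 was not tested. In bulk RNA a change in the number of cells that express a gene and a change in RNA per cell cannot be told apart.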

How the data were processed

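Per the labels' protocols, a stranded kit with poly(A) selection was used on column-purified RNA. The authors deposited read counts as whole numbers by gene symbol, with 1 column for each of the 10 libraries and no normalization. The submitters' processing notes name GRCm38 (mm10) and DESeq2. Which aligner, counting program, strand setting and annotation made the counts is not given in the sources used here. Columns were matched to samples through the library code in each sample's description.

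Genes kept by filterByExpr were scaled with TMM factors and tested with edgeR 4.0.16 (R 4.3.3; quasi-likelihood F test, two-sided, group as the only term), with Benjamini-Hochberg adjustment over all genes and a threshold of 0.05. The SE is the log2 difference over the square root of F. Totals of 4424725 to 8129979 counts put 3 counts at 0.365 to 0.691 CPM, a limit that covers counting error only. The closest 2 libraries of a group differed by more than sampling noise (chi-square per gene 3.32). GENCODE M21 gave positions and, for the longest transcript, length and GC content, matched by symbol for 18338 of 18407 genes and all 70 guidance genes.

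Alternatives were DESeq2 1.42.0, limma-voom (limma 3.58.1), scaling by library size only or by DESeq2 size factors, no filter, a minimum of 1 CPM in 5 libraries, a replicate block, each library or code letter left out, and a per-library spline (5 degrees of freedom each) on log2 length and GC content of log2 CPM (prior count 2), used as an edgeR offset. That offset with each library left out was added after seeing the data. Steps were tested on simulated data. The members and lists were chosen with earlier results of these data known. Genes given in full are those with an unadjusted p below 0.05 and the most abundant tested gene per class by CPM per kb, and signalling genes with an unadjusted p below 0.01. The values of a few marker genes are not reported here.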

Additional observations from a re-analysis of the deposited data

Results flagged for a closer look

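Within groups of 5 libraries, a value was singled out when its gap to the nearest other library, on log2 CPM with 0.5 added, took up more than 0.71 of the group's range. Among 96 groups (48 tested guidance genes in 2 matrices) 5 held such a value. By chance about 5% of groups, 4.8 here, would hold one. The library with most, 3, was laminin replicate 4. Robo2, a receptor for Slits, read 42.7 CPM there and 16.6 CPM in the next highest laminin library. Sema3a, a secreted semaphorin, was at 27.4 CPM against 8.82 CPM. Sema3f, a secreted semaphorin that binds Nrp2, was at 143 CPM against 123 CPM. In collagen replicate 4 the netrin receptor Unc5c was at 0.407 CPM against 2.25 CPM in the next library, which is below the 3 counts that a count of 0 allows there (0.611 CPM). In collagen replicate 2 Ephb6 was at 10.9 CPM against 19.3 CPM.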

How the results depend on the processing

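The number of guidance genes called higher was 2 with limma-voom, with scaling by library size only or by DESeq2 size factors, with no filter and with 1 CPM in 5 libraries, and 3 with the length and GC offset. It was 7 with DESeq2, 9 without code letter B, 1 without code letter D, 0 without code letter E and 1 without code letter F. Of all tested genes, 5 were called higher without code letter D, 1 without E and 3 without F. Limma-voom called 18 of 10789 genes higher, library size only 11, DESeq2 size factors 14 and the offset 78. With no filter 26 of 14423 genes were called higher, and with 1 CPM in 5 libraries 16 of 11122. Leaving out single libraries gave 0 to 3 guidance genes, and 1 to 5 with the offset added. Over all tested genes these fits called 0 to 54 higher, and 14 to 162 with the offset added. DESeq2 called 214 genes in all, the offset 104 and no filter 29, against 16 in the main test. Without code letter B, 2 collagen libraries remained and 1206 of 11018 genes were called higher. No guidance gene was called lower in any of these fits. The signalling genes called higher were 1 in the main test, 3 with DESeq2, 0 with library size only, 22 without code letter B, 0 without code letters D, E or F, and 0 to 1 without single libraries. Those called lower were 0 in the main test, 1 with DESeq2 and 4 without code letter B. Replicate numbers are shared between the matrices, but same-numbered libraries had correlations of deviations from -0.327 to 0.483, with 2 of 5 pairs above 0.1, and 1 of 10 libraries correlated best with its own number. These correlations thus gave no clear sign that the numbers pair the libraries. They cannot exclude a pairing, since the deviations also hold each library's own trend on length. With the replicate block, 0 of 10789 genes, 0 guidance genes and 0 signalling genes were called higher. Sema4g then gave 1.15 (adjusted p = 0.123) and Rtn4rl1 0.75 (adjusted p = 0.226). Genes near 0 changed sign in some fits, and the cause was not tested. Robo1 gave -0.072 without code letter D and -0.076 without F. Unc5b gave -0.056 and Sema3c -5.2e-05 with the offset, and Sema3c -0.22 without D. Sema6b gave 0.085 without D and 0.042 without F, Efna1 -0.13 without B and -0.061 without E, and Efnb2 0.12 without B. Ntn1 gave -0.0068 with DESeq2, -0.011 with its size factors, -0.0060 with library size only, -0.15 with limma-voom, -0.025 with no filter, -0.017 with 1 CPM in 5 libraries, -0.13 with the replicate block, -0.22 with the offset, -0.11 without D and -0.62 without F. Without single libraries, Robo1 ran from -0.17 to 0.33, Sema3c from -0.079 to 0.13, Sema6b from -0.19 to 0.084 and Ntn1 from -0.41 to 0.14. The main test left out guidance genes under about 1 CPM. DESeq2 and the fit with no filter each tested 65 guidance genes, but those under about 1 CPM rest on few counts.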
